A study of Homo sapiens with 6 samples.

Results

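The 149 genes described here are the numbered zinc finger (ZNF) genes that were well expressed in untreated HCT116 cells. They are the rows of the deposited gene table whose symbol is ZNF, a number and at most 1 further letter, and whose mean raw count over the 3 untreated libraries was at least 300. Of 35106 rows, 552 carried such a symbol, and 403 of those lay under the threshold. One member, ZNF252P, is annotated as a transcribed pseudogene and the other 148 as protein-coding. The study sequenced RNA from HCT116, an established human colon carcinoma line. Its only comparison sets 3 untreated libraries (treatment label none) against 3 libraries from cells exposed for 24 h to curcumin, the yellow polyphenol of turmeric. All 6 libraries carry the genotype label WT. The dose is given as 30 µM, although the label's unit is typed as if it were micrometres. The labels name no solvent control and do not state separate cultures for the replicates, and p-values therefore reflect the spread among these libraries, which may be technical.

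Most ZNF genes encode proteins with C2H2 zinc fingers, short folds in which cysteine and histidine residues hold a zinc ion and the fold reads a few bases of DNA. Tandem fingers joined by a conserved linker read longer sites. Many members of the family also carry a KRAB box, which recruits the corepressor TRIM28 (KAP1) and, through it, the histone methyltransferase SETDB1 and heterochromatin protein 1. KRAB zinc finger genes are clustered on chromosome 19 and are best known for silencing transposable elements, whereas members without a KRAB box include activators, cofactors and RNA-binding proteins. The family is defined by symbol and not by function, and some members have no C2H2 finger.

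A finger-coding stretch from ZNF473, which rose after curcumin, and one from ZNF865, which fell, show the repeat that gives the family its name. Both are 78 bases from the reference transcripts (GENCODE 29, GRCh38), 5′ to 3′, and the capitals mark the codons of the cysteine and histidine pairs that hold the zinc.
ZNF473, chr19:50046637-50046714, plus strand: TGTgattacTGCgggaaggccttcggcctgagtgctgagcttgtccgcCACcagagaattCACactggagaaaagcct
ZNF865, chr19:55614672-55614749, plus strand: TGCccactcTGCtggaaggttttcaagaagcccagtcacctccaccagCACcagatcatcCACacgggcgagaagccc
The last codons are the linker to the next finger. The search for these stretches required this spacing and linker, and it matched 3 stretches in ZNF473 and 2 in ZNF865. All finger counts here use a looser pattern without the linker, by which ZNF473 has 18 fingers and ZNF865 has 20. Over the 148 coding members, 39 had 0 to 4 fingers, 53 had 5 to 9 and 56 had 10 or more. A KRAB box was found in 52 members, and 37 members lie on chromosome 19, more than on any other. Chromosome 16 followed with 16 members and chromosome 7 with 15.

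Library totals ran from 16663610 to 20311888 counts. The epithelial genes EPCAM, KRT8, KRT18, KRT19 and CDH1 were detected in all 6 libraries, and VIL1 had at most 11.8 counts. Of the 9 marker genes of fibroblasts, immune cells and endothelium, CD3E, COL1A2, COL3A1, DCN and PTPRC had 10 counts or fewer in every library. COL1A1 was present in both groups, VWF had 22 to 49 counts, and CD14 and PECAM1 rose from at most 15 and 4 counts to between 150 and 369 and between 89 and 320. Their part in the ZNF results was not tested. At a Benjamini-Hochberg adjusted p under 0.05 in edgeR (quasi-likelihood), 3732 of 13718 genes were called higher and 3964 lower after curcumin. Levels below are CPM, counts scaled to library size and corrected with TMM (trimmed mean of M-values), which assumes that most genes do not change. These factors lay between 1.30 and 1.34 for untreated and between 0.716 and 0.804 for curcumin libraries. Under this scaling 56.1% of genes tested were called in either direction, so the assumption may not hold here. Scaling by library size alone moved the median log2 fold change of all genes from -0.04 to -0.84, so directions below are relative to that of most genes. Curcumin replicate 3 stood apart from the other treated libraries for many ZNF genes: it was the highest of its group for 92 of the 149 members, beside 41.3% of all genes tested, and results are also given without it.

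ZNF genes were lower in curcumin-treated cells far more often than they were higher. Of the 149 members, 81 were called lower and 22 higher, and 46 were not called. Among all genes tested 28.9% were called lower and 27.2% higher. The untreated counts that chose the members also enter the fold change, so a fairer background is the 8951 genes that pass the same threshold of 300, of which 35.7% were called lower and 28.1% higher. The members' shares were 54.4% and 14.8%. Without curcumin replicate 3, 99 members were lower and 21 higher, beside 38.1% and 29.6% of the genes past the threshold. With the threshold set on the mean of all 6 libraries instead, 110 ZNF genes passed, of which 55 were lower and 22 higher (median log2 fold change -0.67). Shares of all genes past that other threshold were not taken, so these counts have no matched background. Over the 149 members the median log2 fold change was -0.77, beside -0.13 for all genes that pass the threshold. A change of at least a fold of 2 was reached by 56 of the lowered members (17.4% of all genes tested and 19.6% of those past the threshold), and a fold of 4 by 14 (3.62% and 3.25%). All 149 members passed the filter on low counts, as the rule ensures.

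**Figure D1:**
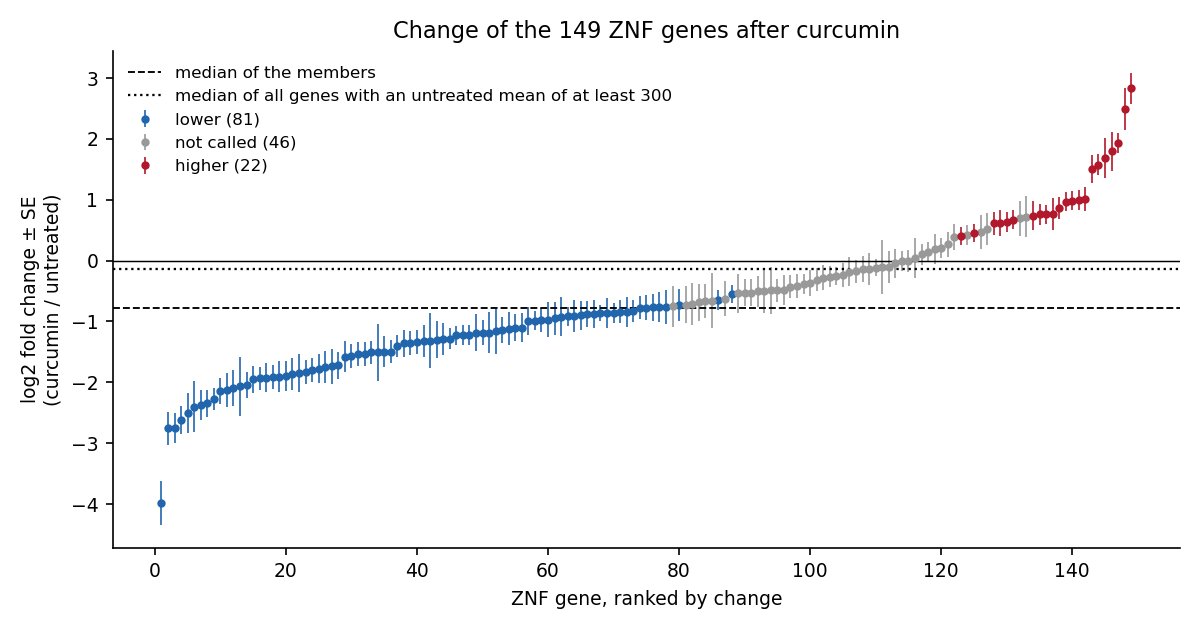
Log2 fold change of each of the 149 ZNF genes after curcumin (vertical axis, bars are SE from edgeR over 3 untreated and 3 curcumin libraries), ranked from the lowest to the highest and coloured by call. The dashed line is the members' median of -0.77 and the dotted line the median of -0.13 over all genes with an untreated mean of at least 300. Most points lie below 0, with 81 called lower and 22 called higher.

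The values by library show the same picture. The members' median level was 25.7, 24.3 and 27.1 CPM in the untreated libraries and 13.5, 14.2 and 19.9 CPM after curcumin. The untreated libraries lay close together and above every treated one, and curcumin replicate 3 was the highest of its group. Together the members took 0.623%, 0.626% and 0.691% of all counts in untreated cells and 0.278%, 0.272% and 0.325% after curcumin, a share that, like scaling by library size alone, carries the shift in the median of all genes. The groups did not overlap for 87 members that were lower (33.1% of all genes tested, 39.1% of those past the threshold) and for 24 that were higher (30.9% and 30.7%). ZNF778 and ZNF362 were called lower although their groups overlapped. In counts, the median over members of the mean count was 652 in untreated cells and 197 after curcumin, beside 1008 and 468 for all genes past the threshold. After treatment 96 members (64.4%) had a mean under 300 and 25 (16.8%) a mean under 100, where 34.2% and 5.87% of all genes past the threshold did. The threshold was set on the untreated counts alone, so any fall near it appears in these shares.

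The 10 members raised with the smallest adjusted p were led by 3 short genes and a histone processing factor. ZNF428, a protein with 1 finger by the pattern, lay at 24.8, 20.1 and 23.7 CPM in untreated cells and 75.2, 89.7 and 97.5 CPM after curcumin. All 3 treated values lay above every untreated value, with a log2 fold change of 1.93 ± 0.17 (SE, adjusted p = 1.73e-05). ZNF622, a factor in the maturation of the large ribosomal subunit, was at 26.2, 23.3 and 22.2 CPM in untreated cells and 125, 142 and 243 CPM after curcumin. It was the most raised member, at 2.83 ± 0.25 (SE, adjusted p = 1.93e-05) on the log2 scale, and curcumin replicate 3 stood well above replicates 1 and 2. ZNF358 was at 61.7, 42.9 and 65.4 CPM in untreated cells and 164, 165 and 177 CPM after curcumin. The treated libraries lay close together and clear of the untreated ones, with a log2 fold change of 1.58 ± 0.18 (SE, adjusted p = 6.25e-05). ZNF473, also known as ZFP100, is the zinc finger protein of the U7 particle that processes the ends of histone messenger RNAs. It was at 15.8, 12.7 and 20.4 CPM in untreated cells and 50.7, 81.9 and 143 CPM after curcumin. The groups were apart, the treated spread was wide with replicate 3 highest, and the log2 fold change was 2.49 ± 0.35 (SE, adjusted p = 0.000217).

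ZNF410, an activator best known for driving the chromatin remodeller gene CHD4, was at 36.7, 37.8 and 38.7 CPM in untreated cells and 77.4, 91.4 and 152 CPM after curcumin. The untreated values hardly differed, all treated values were higher, and the log2 fold change was 1.5 ± 0.23 (SE, adjusted p = 0.00042). CHD4 itself fell, from 446 ± 21.8 to 333 ± 41.5 CPM (SD, n = 3), a log2 fold change of -0.42 ± 0.14 (SE, adjusted p = 0.0286) that became 0.15 and was no longer called once the trend with transcript length and GC content was removed. ZNF385A, which binds RNA and p53, was at 48.95, 64.2 and 57.1 CPM in untreated cells and 114, 124 and 98.97 CPM after curcumin. Every treated library lay above the untreated ones, at 0.98 ± 0.16 (SE, adjusted p = 0.000511) on the log2 scale. ZNF76, a relative of the promoter-binding factor ZNF143, was at 28.5, 32.2 and 28.5 CPM in untreated cells and 63.2, 61.2 and 50.3 CPM after curcumin. Its groups were apart as well, with a log2 fold change of 0.97 ± 0.16 (SE, adjusted p = 0.000543). ZNF143 had a mean of 278 counts in untreated cells and so is no member. Its values were 10.96, 12.5 and 9.41 CPM in untreated cells and 24.5, 19.8 and 25.3 CPM after curcumin, and it rose by 1.08 ± 0.20 (SE, adjusted p = 0.00108) on the log2 scale (0.28 with library size alone).

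ZNF185, a LIM domain protein of the actin cytoskeleton in which no C2H2 finger was found, was at 35.04, 27.8 and 36.2 CPM in untreated cells and 59.6, 69.2 and 68.4 CPM after curcumin. All treated values were higher, with a log2 fold change of 0.99 ± 0.16 (SE, adjusted p = 0.000552). ZNF408, mutated in inherited disease of the retinal vessels, was at 13.5, 11.9 and 12.3 CPM in untreated cells and 24.4, 37.6 and 68.9 CPM after curcumin. The treated values were higher and widely spread, with a log2 fold change of 1.80 ± 0.32 (SE, adjusted p = 0.00101). ZNF277, a partner of the Polycomb protein BMI1, was at 14.9, 11.9 and 14.3 CPM in untreated cells and 31.02, 30.1 and 22.05 CPM after curcumin. Its treated libraries were all higher, at 1.02 ± 0.20 (SE, adjusted p = 0.00154) on the log2 scale. Without curcumin replicate 3, ZNF622, ZNF473, ZNF410 and ZNF408 were still called higher, with log2 fold changes of 2.48, 2.02, 1.16 and 1.31. The other 12 members called higher were ZNF394, ZNF512, ZNF511, ZNF384, ZNF219, ZNF580, ZNF205, ZNF692, ZNF664, ZNF557, ZNF581 and ZNF768, with log2 fold changes of 0.40 to 1.69. With library size alone, 7 of the 22 were still called higher (ZNF428, ZNF622, ZNF358, ZNF473, ZNF410, ZNF408 and ZNF394), beside 9.62% of all genes tested and 8.31% of those past the threshold, and ZNF768 was called lower (log2 fold change -0.40). The value was below 0 there for 10 of the 22, all among those 12.

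The 10 members lowered with the smallest adjusted p included cofactors of histone methylation and of gene repression. ZNF518B, which binds the H3K9 methyltransferases G9a and GLP, was at 56.04, 60.6 and 64.5 CPM in untreated cells and 12.4, 10.6 and 14.5 CPM after curcumin. The groups were far apart, with a log2 fold change of -2.27 ± 0.18 (SE, adjusted p = 1.38e-05). Its relative ZNF518A was at 55.4, 40.7 and 53.6 CPM in untreated cells and 11.6, 12.9 and 14.7 CPM after curcumin. It fell likewise, at -1.93 ± 0.19 (SE, adjusted p = 3.04e-05) on the log2 scale. ZNF217, an oncogene of chromosome 20 whose product recruits the CtBP and CoREST corepressors, was at 50.4, 45.1 and 59.9 CPM in untreated cells and 10.5, 7.46 and 12.5 CPM after curcumin. Every treated value lay below every untreated one, with a log2 fold change of -2.35 ± 0.22 (SE, adjusted p = 2.52e-05). ZNF827, which recruits the NuRD complex and is known at telomeres, was at 32.003, 37.7 and 44.1 CPM in untreated cells and 4.34, 4.36 and 8.13 CPM after curcumin. The groups did not overlap, and the log2 fold change was -2.76 ± 0.27 (SE, adjusted p = 3.34e-05).

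ZNF469, a very large single-exon gene mutated in brittle cornea syndrome, was at 28.97, 22.4 and 51.8 CPM in untreated cells and 2.17, 1.59 and 2.74 CPM after curcumin. The untreated values were widely spread and the treated ones uniformly low, and its log2 fold change of -3.98 ± 0.36 (SE, adjusted p = 2.25e-05) was the lowest of all members. ZNF500, which has a KRAB box by the profile used, was at 13.7, 12.7 and 15.9 CPM in untreated cells and 2.24, 2.06 and 1.95 CPM after curcumin. All treated values were low and close together, at -2.75 ± 0.24 (SE, adjusted p = 2.00e-05) on the log2 scale. ZNF865, of which a finger-coding stretch is shown above, was at 59.2, 47.3 and 59.9 CPM in untreated cells and 6.20, 9.44 and 11.5 CPM after curcumin. The groups were apart, with a log2 fold change of -2.62 ± 0.23 (SE, adjusted p = 2.07e-05). ZNF609, whose gene also gives rise to a known circular RNA, was at 79.4, 84.97 and 116 CPM in untreated cells and 19.2, 18.02 and 26.3 CPM after curcumin. All treated libraries were lower, at -2.14 ± 0.21 (SE, adjusted p = 3.27e-05) on the log2 scale. The counts do not separate linear from circular forms. ZNF629, with 19 fingers by the pattern, was at 47.9, 53.1 and 59.9 CPM in untreated cells and 9.27, 7.30 and 14.4 CPM after curcumin. Its groups did not overlap, and it fell by 2.38 ± 0.25 (SE, adjusted p = 4.11e-05) on the log2 scale. ZNF618, a partner of the chromatin protein UHRF2, was at 41.4, 51.5 and 56.6 CPM in untreated cells and 9.27, 12.1 and 14.8 CPM after curcumin. It too was lower in every treated library, with a log2 fold change of -2.05 ± 0.21 (SE, adjusted p = 4.25e-05). With library size alone 121 members were lower, beside 56.5% of all genes tested and 66.7% of those past the threshold. The 81 members called lower above were all among the 121. That scaling moves the median of all genes downwards, so those calls could hardly have been lost and their number adds no support.

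**Figure D2:**
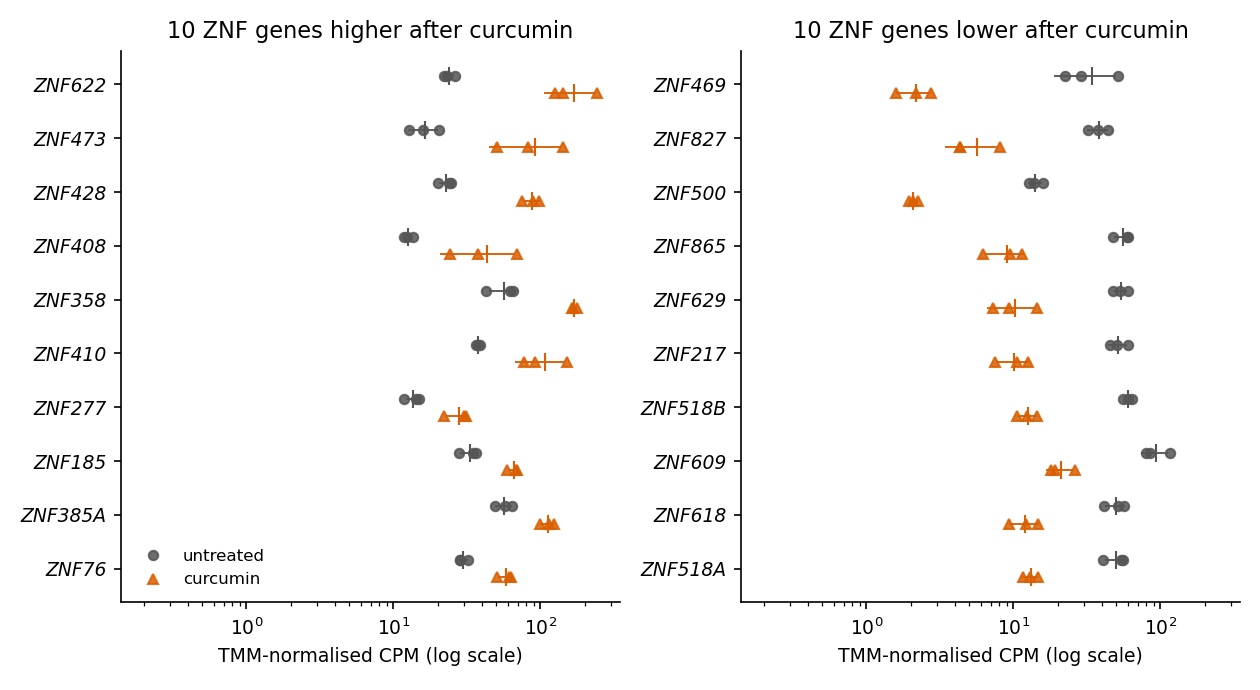
TMM-normalised CPM (log axis) of the 10 members higher and the 10 lower with the smallest adjusted p. Circles are untreated and triangles curcumin libraries (3 each), and ticks with bars are mean ± SD. The groups are apart for all 20 genes, since the choice required it; the lowest single curcumin value is one of ZNF469 (1.59 CPM) and the highest one of ZNF622 (243 CPM).

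The partners of H3K9 methylation and silencing that were members were all lower. Of the 7 genes listed, 6 were members, and all 6 were called lower and 0 higher, with log2 fold changes of -2.27 to -0.86. Besides ZNF518A and ZNF518B, ZNF638, which silences unintegrated retroviral DNA with the HUSH complex, was at 67.5, 66.3 and 66.4 CPM in untreated cells and 27.6, 24.6 and 33.2 CPM after curcumin. Its untreated values were almost identical and its treated ones clearly lower, with a log2 fold change of -1.23 ± 0.16 (SE, adjusted p = 0.000145). The others were ZNF445 (-1.87), a KRAB protein that guards imprinted regions, ZNF462 (-1.10) and ZNF644 (-0.86), a partner of G9a and GLP. These are long genes, with a median transcript of 7444 bases, and 65.0% of all genes of at least 5740 bases past the threshold were called lower. With the trend with transcript length and GC content removed, 4 of the 6 were called lower, beside 26.5% of all genes past the threshold. ZNF462 (-0.31) and ZNF644 (-0.23) were not called there. ZNF274 of the same list lay under the threshold and was not called (0.5).

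Corepressor-recruiting and cancer-linked members were lower in 8 of 9 cases, beside 35.7% of all genes past the threshold. Their median transcript was 5988 bases, and 65.0% of all genes of at least 5740 bases past the threshold were called lower. With the length and GC trend removed 6 of the 9 were lower, beside 26.5% of all genes past the threshold. After ZNF217 and ZNF827 the smallest adjusted p was that of ZNF687, a component of the Z3 complex with ZMYND8 and ZNF592, at 64.7, 61.5 and 78.6 CPM in untreated cells and 20.9, 19.999 and 29.9 CPM after curcumin. It fell in every treated library, at -1.53 ± 0.20 (SE, adjusted p = 0.000135) on the log2 scale. ZNF652, ZNF516, ZNF592, ZNF532 and ZNF703 were also called lower (-1.77 to -0.73). ZNF503, a developmental repressor and the relative of ZNF703, was at 118, 92.7 and 115 CPM in untreated cells and 40.7, 64.7 and 106 CPM after curcumin. Its groups overlapped because of curcumin replicate 3, and it was not called (-0.62 ± 0.29 (SE, adjusted p = 0.0888)). Without that library it was called lower, at -1.04 (adjusted p = 0.00234).

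Promoter-binding and activating members did not share a direction. ZNF76, ZNF384 and ZNF219 rose, and ZNF281, ZNF148, ZNF146 and ZNF740 fell. That is 3 higher and 4 lower of 8, beside 28.1% and 35.7% of all genes past the threshold. ZNF148 (ZBP-89), which binds GC-rich promoters, was at 32.99, 31.4 and 32.7 CPM in untreated cells and 13.5, 9.05 and 11.9 CPM after curcumin. Treated values were all lower, with a log2 fold change of -1.49 ± 0.19 (SE, adjusted p = 0.000136). ZNF146, a small protein made almost only of fingers, was at 75.5, 70.04 and 72.3 CPM in untreated cells and 37.7, 26.2 and 29.5 CPM after curcumin. It fell by 1.22 ± 0.17 (SE, adjusted p = 0.000211) on the log2 scale, with no overlap. ZNF384 and ZNF219 changed by 0.76 and 0.67 (-0.06 and -0.14 with library size alone), and ZNF281, a regulator of pluripotency genes, at -1.5. ZNF263 lay higher in each treated library but was not called (0.70 ± 0.29 (SE, adjusted p = 0.0609)).

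The ribosome and translation list had ZNF622 as its only called member. ZNF593, a factor in assembly of the large ribosomal subunit, was at 20.9, 20.1 and 21.5 CPM in untreated cells and 20.9, 26.4 and 24.8 CPM after curcumin. The groups overlapped, with a log2 fold change of 0.21 ± 0.17 (SE, adjusted p = 0.319). ZNF598, the ubiquitin ligase that marks collided ribosomes, was at 52.1, 62.8 and 56.2 CPM in untreated cells and 70.04, 65.1 and 53.8 CPM after curcumin. It was not called either (0.14 ± 0.16 (SE, adjusted p = 0.46)). Both were called lower with library size alone (-0.60 and -0.66, adjusted p = 0.0105 and 0.00793). ZNF593 was also called lower with the length and GC trend removed (-1.04, adjusted p = 0.000667).

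Among the 6 members linked to RNA processing, mitosis and SUMO, 1 rose (ZNF385A), 2 fell and 3 were not called. Of all genes past the threshold 28.1% were higher and 35.7% lower, so the share lower was near that background. ZNF318, a nuclear cofactor of the androgen receptor, was at 32.04, 41.3 and 44.4 CPM in untreated cells and 12.3, 11.5 and 7.19 CPM after curcumin. Every treated library was lower, at -1.92 ± 0.23 (SE, adjusted p = 0.000106) on the log2 scale. ZNF207 (BuGZ), which binds BUB3 and takes part in spindle assembly, was at 161, 168 and 149 CPM in untreated cells and 92.8, 87.5 and 81.8 CPM after curcumin. The groups were apart, with a log2 fold change of -0.87 ± 0.13 (SE, adjusted p = 0.000385), but the value became 0.20 (adjusted p = 0.334) with the length and GC trend removed. ZNF326, ZNF346 and the SUMO ligase ZNF451 were not called (-0.48 to -0.42). Of the transposon-binding KRAB list only ZNF587 was a member. It was at 25.97, 25.1 and 35.2 CPM in untreated cells and 5.61, 6.43 and 22.5 CPM after curcumin. Curcumin replicates 1 and 2 were far below the untreated libraries and replicate 3 only just below, and the log2 fold change was -1.32 ± 0.45 (SE, adjusted p = 0.0297). Leaving out untreated replicate 1 or 3 or curcumin replicate 1 or 2 ended the call (adjusted p = 0.0577, 0.0916, 0.0697 and 0.0982), as did removing the length and GC trend (adjusted p = 0.132). Of the others on that list, ZNF611 and ZNF91 were called lower from mean counts of 144 and 107 (-2.39 and -1.45), ZNF417, ZNF649 and ZNF765 were not called, and ZNF93 and ZNF141 had mean counts of at most 2.33.

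The 5 members with the highest untreated mean were ZNF207, ZNF664, ZNF609, ZNF503 and ZNF704. ZNF664 was at 135, 132 and 149 CPM in untreated cells and 164, 185 and 222 CPM after curcumin. It rose by 0.46 ± 0.15 (SE, adjusted p = 0.0256) on the log2 scale, a change that turned to -0.36 with library size alone and lost its call in 6 further settings. ZNF704 was at 81.1, 66.3 and 107 CPM in untreated cells and 23.02, 16.7 and 25.95 CPM after curcumin. All treated values were lower, at -1.95 ± 0.22 (SE, adjusted p = 7.57e-05) on the log2 scale. Per kilobase of transcript, the order of these levels in untreated cells was ZNF503 (32.4 CPM per kb), ZNF664 (27.2), ZNF207 (11.5), ZNF609 (10.7) and ZNF704 (5.89). Over all members this level ran from 0.870 to 32.4 CPM per kb in untreated cells, with a median of 5.89, beside a median of 3.18 after curcumin. The members just above the threshold of 300 were ZNF212, ZNF346 and ZNF431, with untreated means of 300.1, 300.6 and 307 counts, and those just below were ZNF280B, ZNF776 and ZNF101, with 292, 293 and 298. Their log2 fold changes were -0.66, -0.48 and -0.11 above it and -2.40, -0.35 and -2.01 below it.

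The direction of change followed transcript length, in the members as in all genes. Members called lower had a median transcript of 5763 bases, those called higher 2378.5 bases (a median between a pair of genes), and those not called 3838.5. Of the 9 members of up to 1954 bases, 5 were higher and 0 lower, where 62.3% of all genes of that length past the threshold of 300 were called higher and 10.2% lower. In the next bin of length, up to 2848 bases, 10 of 22 were higher and 4 lower, where 677 (40.3%) of the 1679 genes past the threshold were higher and 319 lower. From 2849 to 4001 bases 3 of 31 were higher and 16 lower, beside 25.01% and 30.6%. From 4002 to 5739 bases 4 of 36 were higher and 19 lower, beside 15.3% and 45.2%. Of the 50 longest members, from 5740 bases, 41 (82.0%) were lower and 0 higher, beside 65.0% and 6.88% of genes past the threshold. Across the 148 coding members, Spearman's rho of length with log2 fold change was -0.51, the same as across the 8900 coding genes past the threshold (-0.51) and beside -0.45 across all 13188 coding genes tested. Genes are not independent replicates, and these values are a description.

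With each library's trend with length and GC content removed, fewer members were lower. The counts became 58 lower and 22 higher and the median -0.44, where 22.6% of all genes tested were called lower and 25.2% higher (26.5% and 27.2% of those past the threshold). Of the 81 members called lower before, 55 were still called lower, and of the 22 called higher, 17. ZNF207, ZNF316 and ZNF740 had positive values that were not called. The trend cannot be told apart from the treatment, since it separates the groups.

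**Figure D3:**
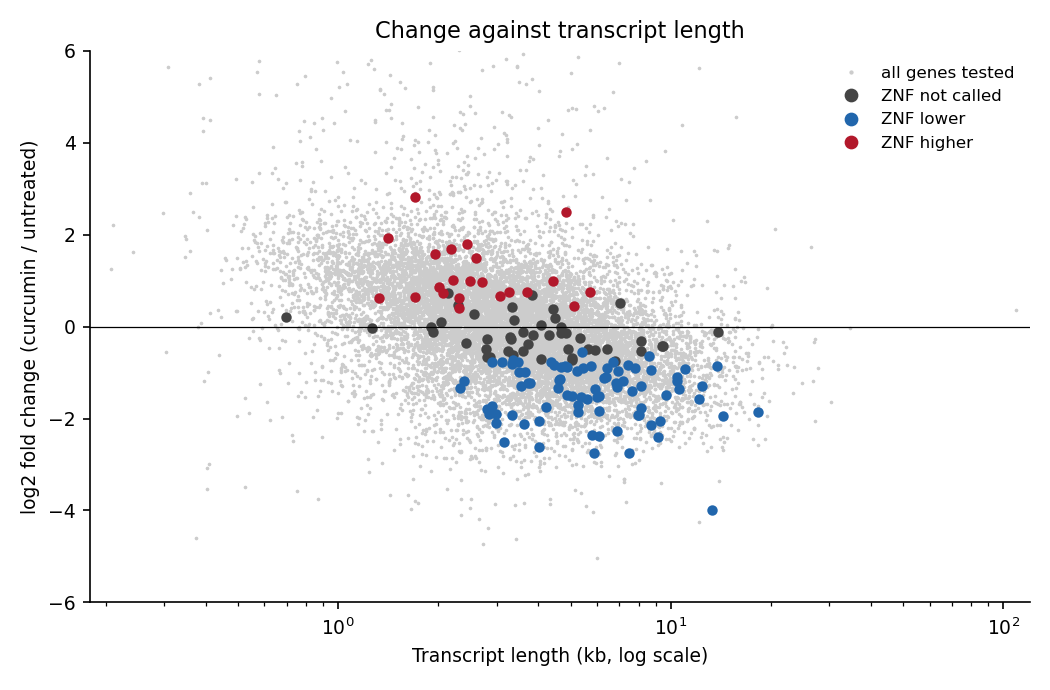
Log2 fold change (curcumin over untreated) against transcript length in kb (log axis) for all genes tested (grey, 101 genes beyond a log2 change of 6 are not drawn) and for the ZNF genes by call. The longest ZNF genes lie below 0, and those called higher are mostly short; the members' Spearman's rho is -0.51.

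Members with and without a KRAB box had like medians. Of the 52 with the box 28 were lower and 4 higher, and of the 96 without it 52 were lower and 18 higher, with a median log2 fold change of -0.77 in each. ZNF500, ZNF786 and ZNF8 were the most lowered KRAB members (-2.75, -2.5 and -2.40), and ZNF473, ZNF394, ZNF557 and ZNF205 the 4 that rose. On chromosome 19, 17 of 37 were lower and 6 higher (median -0.53), and elsewhere 64 of 112 were lower and 16 higher (median -0.80). The 20 members with a KRAB box on chromosome 19 had a median of -0.86, with 11 lower and 2 higher. The 17 without one there had a median of -0.12, with 6 lower and 4 higher. By finger number, 18 of 39 members with 0 to 4 fingers were lower and 8 higher, 31 of 53 with 5 to 9 were lower and 10 higher, and 31 of 56 with 10 or more were lower and 4 higher. Of all genes past the threshold of 300, 35.7% were lower and 28.1% higher. Shares were not tested against each other.

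Among KRAB members, and among related zinc finger genes, the curcumin libraries stood apart from one another. The ratio of curcumin replicate 3 to the mean of replicates 1 and 2 had a median of 1 over all genes tested, 1.27 over the members, 1.19 without and 1.56 with a KRAB box, and 1.88 over the 20 KRAB members on chromosome 19. The ratio was much the same over members with 10 or more fingers (1.54), ZNF genes under the threshold (1.54) and ZBTB, ZSCAN and ZKSCAN genes past it (1.55) as over KRAB members. It was over 1.5 for 54 members (36.2%), beside 18.4% of all genes tested and 12.1% of those past the threshold. For the 20 KRAB members on chromosome 19, the median log2 ratio to the untreated mean was -1.37 in replicate 1, -1.02 in replicate 2 and -0.41 in replicate 3. The 3 untreated libraries differed little for the same genes, with medians of -0.06 to 0.05. ZNF431, a KRAB member on chromosome 19, was at 12.6, 11.6 and 12.1 CPM in untreated cells and 4.56, 7.86 and 21.2 CPM after curcumin. Replicates 1 and 2 lay below the untreated values and replicate 3 above them. ZNF212, on chromosome 7, was at 12.9, 11.1 and 11.5 CPM in untreated cells and 3.66, 4.21 and 14.6 CPM after curcumin, with the same order. Without curcumin replicate 3 the members' median was -0.99, and 16 of the 20 KRAB members on chromosome 19 were lower instead of 11. The direction of the whole group was the same without it, and what sets that library apart was not tested.

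**Figure D4:**
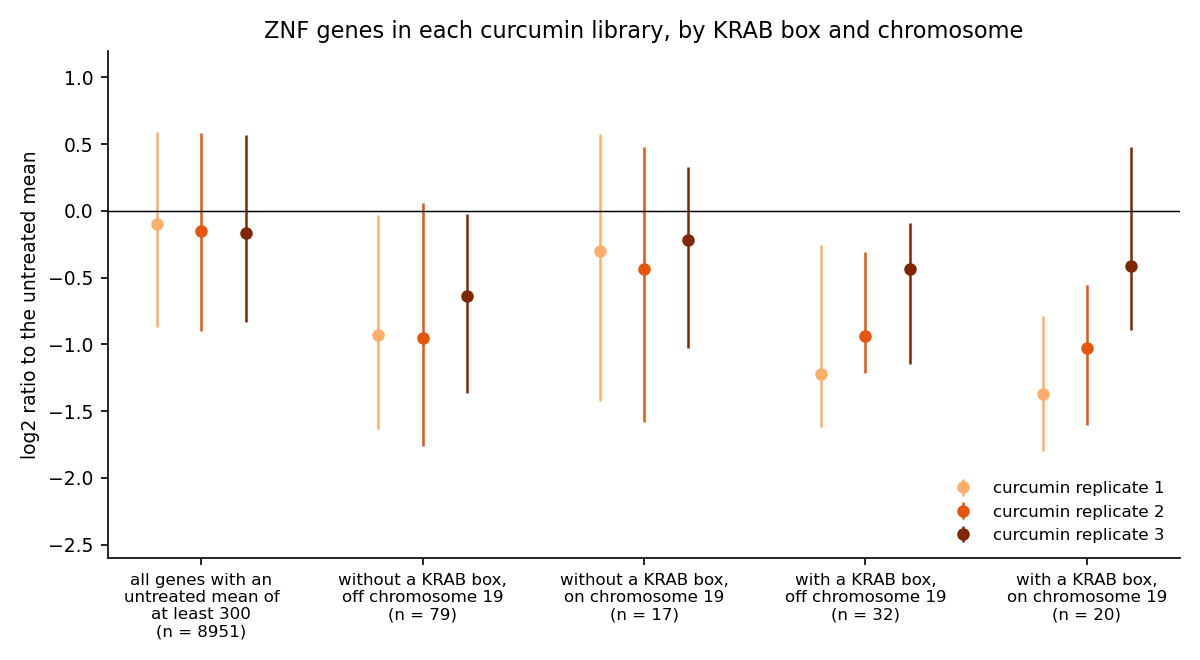
Median and quartiles over genes (points and bars) of the log2 ratio of each curcumin library to the untreated mean, with 0.1 CPM added, for all genes past the threshold of 300 and for members by KRAB box and chromosome. Replicate 3 lies highest in each ZNF group, and the gap is widest for KRAB members on chromosome 19, with -1.37, -1.02 and -0.41 in replicates 1 to 3.

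Genes of the KRAB corepressor pathway and of heterochromatin were lower more often than higher, as the ZNF members were. Of the 26 listed, all past the threshold of 300, 14 (53.8%) were called lower and 5 (19.2%) higher, with a median of -0.43. The members' shares were 54.4% and 14.8%. Among all genes past that threshold 35.7% were lower and 28.1% higher. The median transcript of the listed genes was 5077 bases. Of the genes past the threshold with 4002 to 5739 bases, 45.2% were lower and 15.3% higher. TRIM28, the corepressor that KRAB boxes bind, was at 791, 1043 and 739 CPM in untreated cells and 1745, 1749 and 1812 CPM after curcumin. Treated values were close together and above all untreated ones, with a log2 fold change of 1.04 ± 0.16 (SE, adjusted p = 0.000451), which was 0.24 and not called with library size alone (adjusted p = 0.223). SETDB1, its H3K9 methyltransferase, was at 34.8, 30.02 and 33.7 CPM in untreated cells and 26.8, 32.6 and 50.6 CPM after curcumin. The groups overlapped, and it was not called (0.16 ± 0.23 (SE, adjusted p = 0.575)). ATF7IP, the partner that stabilises SETDB1, was at 52.5, 49.6 and 52.5 CPM in untreated cells and 7.70, 10.8 and 13.99 CPM after curcumin. It fell in each treated library, at -2.25 ± 0.22 (SE, adjusted p = 3.03e-05) on the log2 scale. Of the heterochromatin protein 1 genes, CBX5 fell (-1.68 ± 0.18 (SE, adjusted p = 5.74e-05)), and CBX1 and CBX3 were not called (-0.00 and 0.32).

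The paired H3K9 methyltransferases GLP and G9a moved apart, EHMT1 falling, at -1.57 ± 0.21 (SE, adjusted p = 0.000155) and EHMT2 rising by 1.02 ± 0.20 (SE, adjusted p = 0.0018) on the log2 scale. Of the 4 NuRD subunits listed, CHD4 fell, as given above, and CHD3, HDAC1 and HDAC2 rose (1.45, 1.08 and 0.41), HDAC2 turning to -0.39 with library size alone. Of the HUSH genes listed, TASOR and MPHOSPH8 fell (-1.11 and -1.25) and PPHLN1 was not called (-0.02). TASOR lost its call with the length and GC trend removed (-0.29), and MPHOSPH8 kept it (-1.02). The DNA methyltransferases DNMT3A and DNMT3B fell (-1.66 and -1.60), while DNMT1 was not called (0.21). With library size alone 21 of the 26 were lower and 1, CHD3, was higher, beside 66.7% and 8.31% of all genes past the threshold. With the length and GC trend removed 9 (34.6%) were lower and 6 (23.1%) higher, beside 26.5% and 27.2%.

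**Figure D5:**
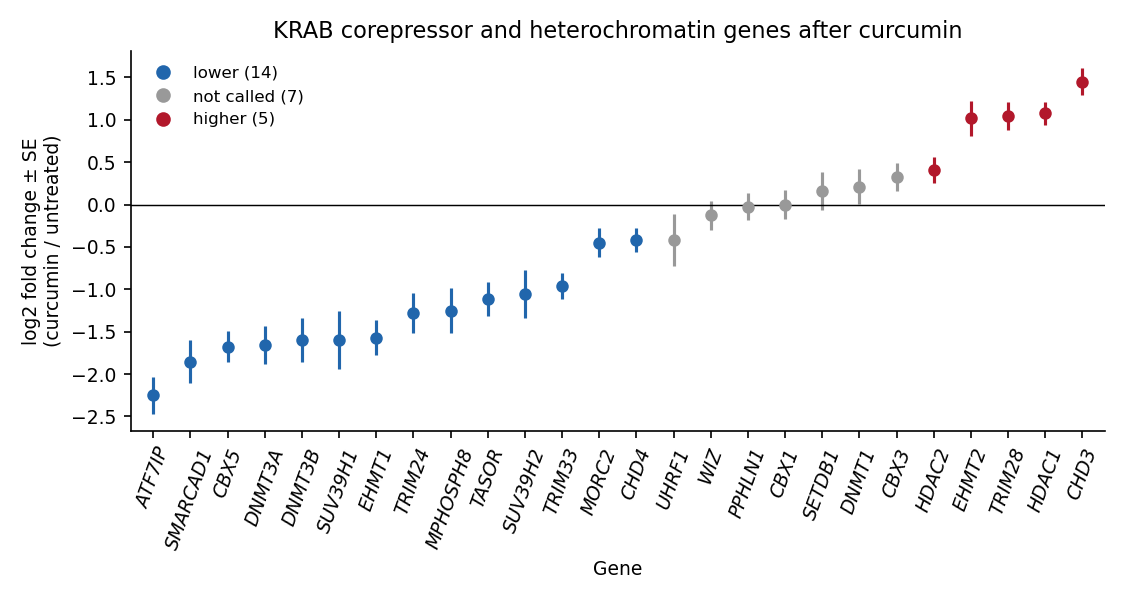
Log2 fold change after curcumin (vertical axis, bars are SE from edgeR, 3 against 3 libraries) of 26 KRAB corepressor and heterochromatin genes, ordered by change and coloured by call. ATF7IP is lowest at -2.25 and CHD3 highest at 1.45; TRIM28 is among the 5 called higher.

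Neighbouring members did not always change together. Of 20 pairs of members within 50 kb of each other, 3 had both genes lower, 1 both higher and 2 one of each. Every other pair held a gene that was not called, and some genes recur among the pairs. Of all members 54.4% were lower and 14.8% higher, and the pairs were not compared with members further apart. On chromosome 1 (GENCODE 29, GRCh38), ZNF672 (chromosome 1, 248838210 to 248849517, plus strand) and ZNF692 (chromosome 1, 248850006 to 248859144, minus strand) face each other with their ends 488 bases apart. ZNF672 fell by 2.09 ± 0.30 (SE, adjusted p = 0.000241) and ZNF692 rose by 0.74 ± 0.24 (SE, adjusted p = 0.0252) on the log2 scale. On chromosome 19, ZNF865 (chromosome 19, 55605405 to 55617269, plus strand) fell while ZNF580 (chromosome 19, 55635016 to 55643469, plus strand), on the same strand, rose by 0.64 ± 0.16 (SE, adjusted p = 0.00723) on the log2 scale. ZNF580 overlaps ZNF581 on that strand, so how reads were split between this pair is uncertain, and the rise of both (ZNF581 0.61) may share reads. The raised genes of these pairs, ZNF692, ZNF580 and ZNF581, lost their calls with library size alone (-0.05, -0.16 and -0.19) and with the length and GC trend removed (0.30, 0.05 and -0.21). The 3 pairs lowered together were ZNF786 with ZNF398 and ZNF398 with ZNF282 on chromosome 7, and ZNF264 with ZNF805 on chromosome 19. Members with like names also differed. ZNF512 rose (0.76 ± 0.15 (SE, adjusted p = 0.00199)) and ZNF512B fell (-1.36 ± 0.22 (SE, adjusted p = 0.000508)), although ZNF512 was not called with library size alone (-0.04), and ZNF385A rose while ZNF385B was not called (-0.24).

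Promoters were matched for 126 members in RefSeq (GRCh38.p14, 250 bases before to 50 after the start), of which 18 were higher, 67 lower and 41 not called. They were richer in GC than promoters at large, with a median of 66.0% against 58.3% of 27305 promoters. In all, 8 motifs were searched on both strands. GGGCGG, the core of the GC box, was found in 69.8% of members' promoters and in 44.6% of all. CCGGAAG, the core bound by ETS factors, was found in 37.3% and 10.7%, and ACTACAA, part of the site bound by ZNF143 and ZNF76, in 10.3% and 2.95%. TATAAA was found in 2.38% and 11.95%, CCAAT in 35.7% of both, TGACGTCA, the cyclic AMP response element, in 5.56% and 1.98%. TGACNNNGC, the core of the antioxidant response element, was found in 14.3% and 13.6%, and GAANNTTC, of the heat shock element, in 6.35% and 6.87%. The 27305 promoters were taken whether or not their genes were expressed, whereas the members were chosen for high untreated counts. The contrasts therefore cannot tell a trait of ZNF genes from one of well expressed genes. A match is a description and not a binding site. CCGGAAG can share bases with GAANNTTC or with GGGCGG.

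The promoters of ZNF622 and ZNF410, which rose, and of ZNF518B, ZNF217 and ZNF865, which fell, are shown because these genes were among the most changed and show the GC boxes and ETS cores that were frequent in the set. They read 5′ to 3′ on the gene's strand, from 250 bases before to 50 after the start, and capitals mark matches to any of the motifs on either strand.
ZNF622, chr5:16465751-16466050, minus strand: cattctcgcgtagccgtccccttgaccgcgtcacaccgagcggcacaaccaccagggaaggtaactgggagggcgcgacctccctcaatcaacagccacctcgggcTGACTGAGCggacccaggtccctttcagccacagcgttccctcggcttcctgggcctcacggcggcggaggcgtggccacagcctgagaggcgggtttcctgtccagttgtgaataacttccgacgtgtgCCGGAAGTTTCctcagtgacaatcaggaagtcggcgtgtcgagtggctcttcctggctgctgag
ZNF410, chr14:73886609-73886908, plus strand: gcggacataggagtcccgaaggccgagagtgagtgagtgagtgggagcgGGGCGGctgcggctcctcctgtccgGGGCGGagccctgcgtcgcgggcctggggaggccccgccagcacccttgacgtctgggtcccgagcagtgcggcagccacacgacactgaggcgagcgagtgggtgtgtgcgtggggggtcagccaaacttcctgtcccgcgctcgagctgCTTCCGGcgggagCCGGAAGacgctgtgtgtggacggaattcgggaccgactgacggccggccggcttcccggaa
ZNF518B, chr4:10457377-10457676, minus strand: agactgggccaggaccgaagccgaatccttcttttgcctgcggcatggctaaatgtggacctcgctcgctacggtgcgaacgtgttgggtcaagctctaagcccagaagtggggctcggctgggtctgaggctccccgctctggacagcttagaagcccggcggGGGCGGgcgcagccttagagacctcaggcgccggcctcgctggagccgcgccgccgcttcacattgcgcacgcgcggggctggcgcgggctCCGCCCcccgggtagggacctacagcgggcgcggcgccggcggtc
ZNF217, chr20:53593790-53594089, minus strand: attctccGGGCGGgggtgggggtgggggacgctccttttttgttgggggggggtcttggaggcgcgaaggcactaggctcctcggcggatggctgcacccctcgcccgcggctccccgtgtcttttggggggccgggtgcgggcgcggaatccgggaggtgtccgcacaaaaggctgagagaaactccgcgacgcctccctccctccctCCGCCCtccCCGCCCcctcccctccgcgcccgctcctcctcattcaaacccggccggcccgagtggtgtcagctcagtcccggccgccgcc
ZNF865, chr19:55605397-55605696, plus strand: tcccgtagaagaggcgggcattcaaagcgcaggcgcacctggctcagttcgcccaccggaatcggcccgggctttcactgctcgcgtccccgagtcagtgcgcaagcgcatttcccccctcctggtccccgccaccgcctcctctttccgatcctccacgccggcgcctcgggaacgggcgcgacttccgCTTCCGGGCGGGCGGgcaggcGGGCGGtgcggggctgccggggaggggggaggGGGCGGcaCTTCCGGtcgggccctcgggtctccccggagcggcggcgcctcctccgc
ZNF622 has an ETS core overlapping a GAANNTTC match, a match to TGACNNNGC and no GGGCGG. ZNF410 has 2 GGGCGG and 2 CCGGAAG matches. ZNF518B has 2 GGGCGG matches, 1 on each strand, and ZNF217 has 3. ZNF865 has 4 GGGCGG matches, 2 of them overlapping, and 2 CCGGAAG matches, 1 of which overlaps a GGGCGG.

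ZNF genes under the threshold and related families also had medians below that of all genes. Of the 403 numbered ZNF genes under 300 counts, 238 passed the filter. Of these 71 (29.8%) were lower and 23 (9.66%) higher, beside 28.9% and 27.2% of all genes tested. The share lower was thus near that of all genes, and the share higher was below it. Their median log2 fold change was -0.54, beside -0.04 for all genes tested. Low counts make calls harder there, so the shares are not comparable with those of the members. Of 35 ZBTB, ZSCAN and ZKSCAN genes past the threshold, which pair zinc fingers with a BTB or SCAN domain or with a KRAB box, 23 (65.7%) were lower and 2 higher, with a median of -1.20, beside 35.7% and 28.1% of all genes past the threshold. With the length and GC trend removed 14 were lower (40.0%), beside 26.5% of all genes past the threshold. Their median transcript was 5956 bases, beside 4617 bases for the members.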

How the data were processed

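The authors deposited estimated counts per gene, quantified from the reads and not scaled between libraries. Aligner, counting tool and annotation: not given in the sources used here. Identifiers are human, so the table was read as human although mouse builds (GRCm 38, mm 10) appear in the submitters' processing notes. Estimated counts were rounded, filtered (edgeR's filterByExpr with at least 10 counts and 15 in total), scaled by TMM and tested with edgeR 4.0.16 (quasi-likelihood, R 4.3.3) over all 13718 genes, with Benjamini-Hochberg adjusted p. Members and lists were chosen with earlier results of these data known. The text names the 10 members higher and 10 lower with the smallest adjusted p and no overlap, 3 genes on each side of the threshold, the 5 highest untreated means and the role lists; other genes were named after their values were seen. Those choices include the 50 kb gap, the 8 motifs, the examples printed and the ratio of curcumin replicate 3. KRAB boxes (a 37-residue profile, minimum score 0 bits, set after viewing the scores) and fingers were counted on translated GENCODE 29 coding sequences. A floor of 3 counts was 0.114 to 0.238 CPM, counting error only. On data simulated for curcumin against untreated with 13540 genes, 72 of 100 genes changed by a fold of 2, 100 of 100 by a fold of 4 and 22 of 13340 unchanged genes were called. The simulation changed few genes, as many up as down, and held no shift in scaling between the groups. In the data themselves 56.1% of genes tested were called, so these rates may not hold for them. Alternatives were other scaling, filters, DESeq2 1.42.0, a replicate block, removal of a loess trend (span 0.3) with length and GC, each library left out and other count thresholds.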

Additional observations from a re-analysis of the deposited data

How the results depend on the processing

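With library size alone, 1320 genes were higher and 7744 lower, and 7 members were higher with a median log2 fold change of -1.58. With the library size taken without the 100 most abundant genes, 12 members were higher and the median was -1.13. With the length and GC trend removed the median was -0.44. Among the ZNF genes with an untreated mean of at least 500 counts, 14 were higher and 55 lower of 97. Leaving out each library in turn gave 17 to 21 members higher, 73 to 99 lower and medians of -0.99 to -0.71, and 3253 to 3843 genes higher and 3369 to 4306 lower over all genes.

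Replicate numbers gave no clear pairing of the libraries: same-numbered deviations correlated at 0.04, 0.04 and 0.15, and differently numbered ones at -0.10 to 0.06. The value for number 3 was the largest. Untreated replicate 3 was also the highest of its group for 75 of the 149 members, beside 34.5% of all genes tested. With the replicate block 22 members were higher and 89 lower, with a median of -0.83, and 3683 genes were higher and 4011 lower.

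Of 38 named genes, signs turned for ZNF776 (0.11) and ZNF431 (0.87), ZNF207 (0.20) and ZNF593 (-1.04) with the trend removed, for ZNF664 (-0.36), ZNF593 (-0.60) and ZNF598 (-0.66) with library size alone, and for ZNF593 (-0.16) and ZNF598 (-0.21) without the 100 most abundant genes. ZNF431 ranged from -0.96 to 0.26 over the libraries left out, above 0 without curcumin replicate 1 or 2 (0.26 and 0.08). The cause was not tested. Of 532 values of named genes under alternatives, 493 kept sign and call.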
